A study of Mus musculus with 43 samples.

Results

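The genes described here are those of the replication-dependent histones, taken as the rows of the count table whose symbol begins with Hist1h, Hist2h, Hist3h or Hist4h and that hold at least 10 counts summed over all libraries. Of 54532 genes in the table, 70 carry such a symbol and 55 reached the minimum. By symbol they are 6 genes of the linker histone H1, 13 of H2A, 17 of H2B, 7 of H3 and 12 of H4. Of these, 53 are annotated as protein coding, and Hist1h2aj and Hist1h2al, both of class H2A, as pseudogenes. The gene just inside the minimum was Hist1h2br with 10 counts, and the one just outside was Hist1h3b with 5. The 15 rows below it hold 14 counts in all, and 9 of them are listed at 0.

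Replication-dependent histone genes supply the histones that package newly made DNA, and their transcription rises when a cell enters S phase. Their mRNAs have as a rule no intron and no poly(A) tail. They end instead just past a conserved stem-loop, which the stem-loop binding protein SLBP holds while the U7 snRNP and its partners cut the transcript. A selection for poly(A) removes such mRNAs, whereas the libraries used here were made from total RNA after depletion of rRNA. In cells that have left the cell cycle, several of these genes are known to give longer, polyadenylated transcripts.

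The libraries hold RNA of brain endothelial cells (EC), the cells that line the vessels and form the blood-brain barrier, sorted by FACS as CD45-, CD11b- and CD31+. The 43 libraries come from mice aged 2 months of the long-inbred strains C57BL/6J (6 libraries), 129S1/SvImJ (9), A/J (5), DBA/2J (5) and NOD/ShiLtJ (6) and of the wild-derived strains CAST/EiJ (6) and WSB/EiJ (6). Cortex gave 21 libraries and hippocampus 22, and 16 were from females and 27 from males. The titles carry the word high or low, which is not defined in the sources used here: 14 male libraries are titled high and 13 low, against 15 and 1 female libraries. The mouse behind each library is not given, so each was treated as independent, and p-values measure the spread between libraries, which may be technical.

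Per library, 1626534 to 49372356 reads were counted on genes. Female libraries were deeper, with a median of 21242058 counts against 5257353 in males. The share of counts on 3 rRNA-like genes was 1.59% to 12.1% in female and 13.0% to 29.3% in male libraries, without overlap. The mean of log2(CPM + 1) over 20 endothelial markers was 9.34 in both sexes. The median marker had a mean of 854 CPM for endothelial cells, 132 for pericytes, 81.3 for astrocytes and 0.961 for microglia. RNA of other cells was thus present, and the study states that its EC were enriched but not pure. Values below are on the counts-per-million (CPM) scale after TMM scaling. Each 2-sided test was edgeR's quasi-likelihood test over 29120 genes (27529 within males), with Benjamini-Hochberg adjustment over all genes tested, and a gene is called at an adjusted p under 0.05. Log2 fold changes are given with their standard error (SE).

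The stem-loop was sought first, because it marks the transcript end that sets these mRNAs apart. In the GENCODE M21 transcripts, on the GRCm38 (mm10) build, 53 of the 55 genes have an annotated stop codon and 33 carry past it a stem of 6 perfectly paired bases that opens with GG, closed by a loop of 4 bases (T, then 2 pyrimidines, then A or C). Over all transcripts outside the family the same form is present in 0.157% of 55380 genes, against 60% of the 55. Of the 20 genes with a stop codon and no stem-loop, 12 have fewer than 40 bases annotated after the stop. The stem-loops of the genes on which the results turn are shown with 5 bases on each side and the 16 bases of the stem-loop in capitals. Hist1h3e, the H3 gene with the highest level for its length, and Hist1h4a and Hist1h4b are added to show the other forms.
Hist1h1c: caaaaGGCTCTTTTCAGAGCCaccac
Hist1h1e: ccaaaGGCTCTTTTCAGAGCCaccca
Hist1h3e: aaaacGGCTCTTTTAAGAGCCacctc
Hist1h4a: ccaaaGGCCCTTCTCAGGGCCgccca
Hist1h4b: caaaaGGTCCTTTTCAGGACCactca
Hist1h4c: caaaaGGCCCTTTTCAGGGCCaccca
Hist1h4d: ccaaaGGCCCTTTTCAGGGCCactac
Hist1h4h: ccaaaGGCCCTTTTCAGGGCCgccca
These are 5 distinct forms, which are all that occur in the 33 genes. The stem-loop of Hist1h1c lies at chr13:23739512-23739527 on the plus strand, 24 bases after the stop codon, and the annotated transcript runs on for 840 bases. That of Hist1h1e lies at chr13:23621782-23621797 on the minus strand with 1153 bases past it, and that of Hist1h4d at chr13:23581950-23581965 on the plus strand with 770 bases past it. The stem-loops of Hist1h4c (chr13:23698089-23698104, minus strand) and Hist1h4h (chr13:23531458-23531473, plus strand) are followed by 454 and 46 bases.

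The promoters of the 3 genes with the highest levels are shown as the 150 bases before the RefSeq start site on GRCm38.p6, with the motifs found in capitals. They lie at chr13:23738657-23738806 (plus strand), chr13:23622559-23622708 (minus strand) and chr13:23581418-23581567 (plus strand).
Hist1h1c: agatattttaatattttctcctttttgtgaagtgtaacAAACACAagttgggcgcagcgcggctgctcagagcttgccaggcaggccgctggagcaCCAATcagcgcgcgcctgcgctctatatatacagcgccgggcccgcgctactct
Hist1h1e: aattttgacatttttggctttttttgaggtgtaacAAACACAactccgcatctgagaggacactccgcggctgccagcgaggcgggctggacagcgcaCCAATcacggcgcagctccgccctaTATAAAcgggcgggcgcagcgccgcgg
Hist1h4d: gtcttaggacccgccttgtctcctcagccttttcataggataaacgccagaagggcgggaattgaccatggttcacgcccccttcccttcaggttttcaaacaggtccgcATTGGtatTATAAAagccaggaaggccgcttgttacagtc
Of the 55 genes, 48 matched a RefSeq promoter of 250 bases before and 50 after the start. On either strand, these were searched for the CCAAT box (CCAAT), the TATA box (TATAAA), the H1 box of linker histone genes (AAACACA) and the octamer of H2B genes (ATTTGCAT). The CCAAT box was found in 83.3% of them against 37.8% of 26964 promoters outside the family, in every H1, H2A, H2B and H3 gene matched but in 27.3% of the H4 genes. In Hist1h4d it is read on the other strand, as ATTGG. The TATA box was found in 52.1% against 14.1%, the H1 box in 5 of 6 H1 genes (83.3%) against 7.12%, and the octamer in 6 of 15 H2B genes (40%) against 1.71%. These matches describe letters and were not tested as binding sites.

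Most of the 55 genes are on chromosome 13 (44), with 8 on chromosome 3, 2 on chromosome 11 and 1 on chromosome 6, and 51 have a single exon. The annotation lists 53 as protein coding, Hist1h2aj as an unprocessed pseudogene and Hist1h2al as a processed pseudogene. Near-identical copies make some counts uncertain, since the handling of reads with several matches is not given in the sources used here. In 12 genes every window of the length of a read is unique among annotated transcripts of other genes, and 1 gene has no unique window. Genes that overlap the same locus were left out of this search, so reads shared with them are not covered. The 15 genes with fewer than 50% of windows unique hold 0.934% of the counts described here. Hist1h4d has 100% of windows unique, Hist1h1e 98.8%, Hist1h1c 96.7%, Hist1h4c 89.1% and Hist1h4h 65.9%.

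The signal was concentrated in few genes. Of 569765 counts on the 55 genes, Hist1h1c took 41.5%, Hist1h1e 23.6% and Hist1h4d 9.02%, and the 10 leading genes took 90.2%. By class, H1 held 66.8%, H4 18.2%, H2A 7.55%, H2B 5.97% and H3 1.49%. Hist1h1c (ENSMUSG00000036181, chr13:23738808-23740367) and Hist1h1e (ENSMUSG00000051627, chr13:23620629-23622558), which encode linker histones that bind the DNA entering and leaving the nucleosome, had counts in all 43 libraries, and no other gene did. Hist1h1e overlaps annotated transcripts of Hist1h2be and Gm11398 on its own strand.

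Per kilobase of transcript, the mean level was 189 CPM for Hist1h1c, 94.9 for Hist1h1e and 52.4 for Hist1h4d. Next came Hist2h2ac (42), the highest H2A gene by this measure, Hist1h2al (38.3), Hist1h4h (37.1) and Hist1h4c (24.2). The highest H2B gene per kilobase was Hist1h2bc (14.3) and the highest H3 gene was Hist1h3e (9.38). The order therefore placed an H1 gene first and every H3 gene below the leading gene of each other class. Among the 10 genes with the highest mean CPM, the lower ones were Hist2h2ac at 21.9 ± 26.2 CPM (SD, n = 43), Hist1h4c at 19.9 ± 25.2, Hist1h4h at 17.5 ± 30.9, Hist1h2bc at 16.5 ± 17.4, Hist1h1d at 15 ± 14.5, Hist1h2al at 13 ± 18.7 and Hist2h4 at 11.8 ± 13.1. The differences between neighbours in this order were smaller than the SD of either.

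The 19 genes whose annotated transcript runs 100 bases or more past the stem-loop held 84.5% of the counts, with a median level of 2.24 CPM per kilobase. Hist1h1c, Hist1h1e and Hist1h4d, which are among the 19, alone held 74.1%. The 14 genes whose transcript ends within 100 bases of it held 2.45%, with a median of 0.335. Unique windows made up 0% (Hist2h2aa2) to 99.2% (Hist1h2bm) in the 14 and 39.5% (Hist2h3c2) to 100% in the 19. The part of this in the levels was not tested. Hist1h4h, with 46 bases past the stem-loop and 37.1 CPM per kilobase, was the highest of the 14. Reads of either transcript end were not analysed here.

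**Figure D1:**
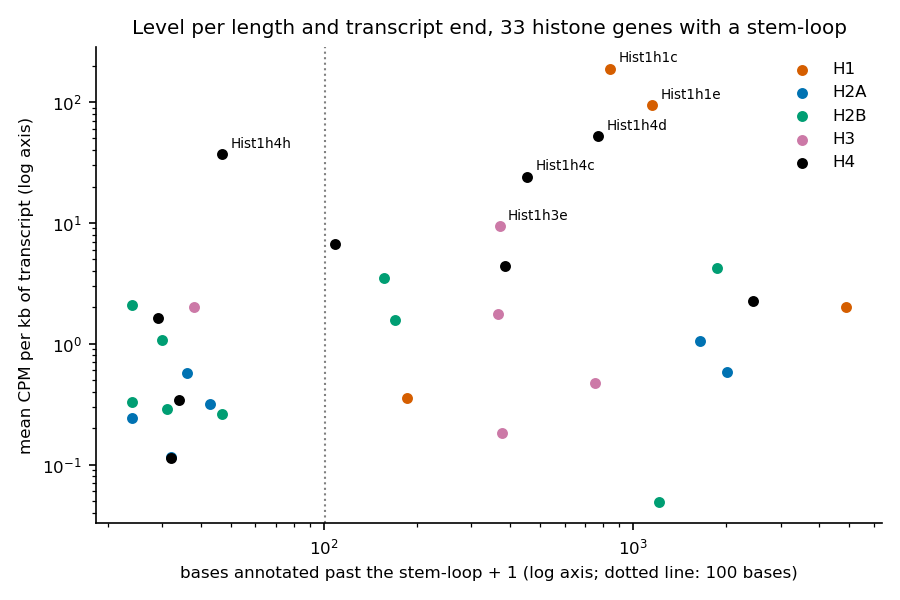
Mean CPM per kilobase of transcript (log axis) of the 33 genes with a stem-loop, against the bases annotated past it plus 1 (log axis), coloured by histone class. Hist1h1c, Hist1h1e and Hist1h4d stand highest and to the right of the dotted line at 100 bases, and Hist1h4h is the highest gene to its left.

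Below the leading genes, detection was sporadic. A gene of the 55 had counts in a median of 13 libraries, 19 had counts in fewer than 10, and Hist1h1t and Hist1h2ai in 1 each. All 781 counts of Hist1h1t, the testis linker histone, came from the DBA/2J female hippocampus library, and all 352 counts of Hist1h2ai from a 129S1/SvImJ female cortex library titled low. In 19 genes over 50% of the counts came from 1 library, and in 41 over 25%, although the largest library holds 9.03% of all counts of the series. The leading library differed between genes and was 1 of 17. Between 6 and 41 of the genes had a count in a library (median 22).

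The first comparison asked whether EC of female and male mice differed. Single linker histone and H4 genes had higher levels in female libraries. Of the 54 genes tested (Hist1h2br did not pass the filter on low counts), 5 were called, and all 5 were higher in females (9.26% of the 54). Over all genes tested 2.85% were called, and 2.56% were called as higher in females. By class 2 of 6 H1 genes and 3 of 12 H4 genes were called, and none of 13 H2A, 16 H2B and 7 H3 genes. The median log2 fold change was 0.68 in H1 and in H4, 1.84 in H2A, 0.41 in H2B and 0.69 in H3. The median log2 fold change over the 54 genes was 0.80, against -0.12 over all genes, with 38 above and 16 below 0. Over all genes 745 of 830 calls were higher in females, and with DESeq2's size factors 430 of 585, where the median of all genes moved to -0.24 and that of the 54 genes to 0.65.

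Hist1h1c stood at 183 to 718 CPM (median 433) in the 16 female libraries and at 32.3 to 494 (median 203) in the 27 male libraries. The ranges overlapped, with the upper male values from C57BL/6J. The means were 456 ± 171 and 199 ± 105 CPM (SD), a log2 fold change of 1.19 (SE 0.19, adjusted p = 5.68e-06).

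Hist1h1e stood at 128 to 871 CPM (median 228) in females and at 4.12 to 265 (median 116) in males. The highest value was a WSB/EiJ female cortex library. The means were 299 ± 191 and 115 ± 57.4 CPM, a log2 fold change of 1.38 (SE 0.23, adjusted p = 1.45e-05).

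Hist1h4d (ENSMUSG00000061482, chr13:23581598-23582735) encodes the core histone H4. At the read length its sequence is not shared with an annotated gene outside its own locus. It stood at 17.3 to 170 CPM (median 106) in females and at 0 to 86.8 (median 32.1) in males. The means were 102 ± 48.5 and 34.3 ± 21.4 CPM, a log2 fold change of 1.57 (SE 0.27, adjusted p = 2.03e-05). In all 7 strains the female mean was above the male mean for Hist1h1c, Hist1h1e and Hist1h4d. Every female library was above every male library of its strain in 5 strains for Hist1h1c and Hist1h1e and in 4 for Hist1h4d. These counts include A/J and DBA/2J, each with 1 female library, titled high, against 4 male libraries of both tags. The share of all genes with such means or such a separation was not computed, so the counts have no background.

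The calls of the other H4 genes were less stable. Hist1h4c (ENSMUSG00000060678, chr13:23697635-23698454) had a median of 23.7 CPM in females (0.487 to 114) and 8.38 in males (0 to 39.7), with a log2 fold change of 1.67 (SE 0.46, adjusted p = 0.0244). Without 129S1/SvImJ this was 0.82 (SE 0.57, adjusted p = 0.643), and the call was also lost without A/J (adjusted p = 0.0551) and without DBA/2J (0.109). Hist1h4h (ENSMUSG00000060981, chr13:23531050-23531519) had a median of 11.9 CPM in females (0.487 to 194) and 8.47 in males (0 to 23.9), with a log2 fold change of 1.58 (SE 0.47, adjusted p = 0.0479). The value of 194 CPM was a WSB/EiJ female cortex library, and without WSB/EiJ the fold change was 0.97 (SE 0.47, adjusted p = 0.39). The call of Hist1h4h was also lost without C57BL/6J (adjusted p = 0.225), A/J (0.102) or DBA/2J (0.189).

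**Figure D2:**
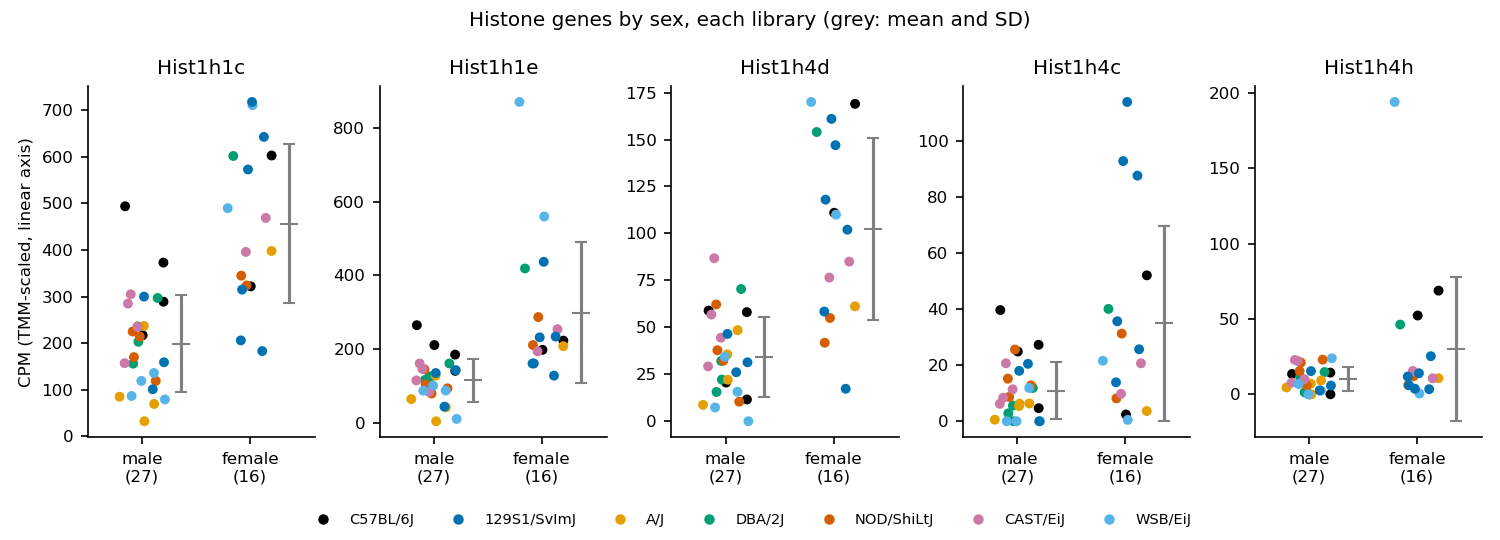
CPM (linear axes) of the 5 histone genes called between the sexes in each of 27 male and 16 female libraries, coloured by strain, with mean and SD in grey. Female libraries stand higher for Hist1h1c, Hist1h1e and Hist1h4d, while Hist1h4c and Hist1h4h overlap widely and the Hist1h4h mean is raised by 1 library at 194 CPM.

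The sex difference could not be separated from library composition, and sex was unbalanced with the title tag. Titled high were 15 female and 14 male libraries, and titled low 1 and 13. In libraries titled high alone Hist1h1c, Hist1h1e and Hist1h4d were called among 52 genes, where 1.73% of all genes were. Hist1h4c and Hist1h4h were not called there. The sexes did not overlap in the rRNA-like share, of whose 3 genes Gm23935 (-2.07) and Gm42418 (-4.34) were lower in females, and with this share as a covariate none of the 51 genes that could be fitted was called, where 0.226% of all genes were. The log2 fold changes were then 1.08 for Hist1h1c (SE 0.41, adjusted p = 0.263) and 1.20 for Hist1h1e (SE 0.48, adjusted p = 0.303). They were 1.32 for Hist1h4d (SE 0.61, adjusted p = 0.408) and -0.23 for Hist1h4c (SE 1.09, adjusted p = 0.975). These SEs were larger than without the covariate. Since the share does not overlap between the sexes, this fit cannot tell it apart from sex. With the rRNA-like genes left out of the counts the same 5 genes were called, where 2.77% of all genes were. In A/J, CAST/EiJ and NOD/ShiLtJ alone, whose 5 female libraries had the higher female shares (9.66% to 12.1%), none of 49 genes was called, where 0.0697% of all genes were. A count of 0 is near that background and says nothing about the histone genes. There the log2 fold change was 1.12 for Hist1h1c (SE 0.29, adjusted p = 0.204), 1.25 for Hist1h1e (SE 0.34, adjusted p = 0.277) and 0.69 for Hist1h4d (SE 0.34, adjusted p = 0.747). In the other 4 strains, whose female shares were 1.59% to 4.05% and where 2.58% of all genes were called, it was 1.15 (SE 0.23, adjusted p = 0.000781), 1.33 (SE 0.27, adjusted p = 0.00112) and 1.96 (SE 0.35, adjusted p = 0.000143). The 2 sets of strains were not tested against each other. Depth was equalised by thinning every library to the smallest total. Hist1h1c, Hist1h1e and Hist1h4d were then called again, at 1.03, 1.21 and 1.37, and Hist2h2ac as well, where 1.67% of all genes were. In bulk libraries a change in the number of contributing cells and a change in RNA per cell cannot be told apart.

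The remaining classes gave no call in the fit across all libraries without covariates. Hist2h2ac (chr3:96220361-96220880), an H2A gene, had a median of 31.2 CPM in females (0.0694 to 106) and 9.45 in males, with a log2 fold change of 1.62 (SE 0.52, adjusted p = 0.074). It was called with strain as a covariate (2.3% of all genes called) and with thinned counts (1.67%). Hist1h2bc, the leading H2B gene, had a log2 fold change of 1.11 (SE 0.43, adjusted p = 0.182) and Hist1h3e one of 0.35 (SE 0.66, adjusted p = 0.821). The smallest p among genes lower in females was that of Hist1h2ba, the testis H2B, at 0 in every female library and above 0 in 3 male libraries (highest 4.11 CPM, adjusted p = 0.414). Summed over the 55 genes, females had 1135 ± 424 CPM (585 to 2067) and males 495 ± 222 (131 to 1064), and without the 3 leading genes the sums were 278 ± 102 and 146 ± 70.5.

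Among genes that process or complement these transcripts, the lists were small. Of 16 genes for histone mRNA processing and supply, Slbp, which encodes the protein that binds the stem-loop, was higher in females (21.7 ± 15.5 against 6.54 ± 6.4 CPM, log2 fold change 1.74, adjusted p = 0.0414). Srrt, which links the cap-binding complex to 3' end processing, was also higher (0.75, adjusted p = 0.0103), and the other 14 were not called. Of 11 replacement histones, most of which are made also outside S phase from polyadenylated mRNA, H3f3b (0.84, adjusted p = 4e-06), H2afj (2.23, adjusted p = 6.72e-05) and H2afv (1.01, adjusted p = 0.0439) were higher. Of 14 histone chaperones, Atrx (0.50, adjusted p = 0.0155), Nasp, which holds H3 and H4 and linker histones (1.10, adjusted p = 0.0193), and Nap1l4 (0.55, adjusted p = 0.0252) were higher. The median log2 fold change was 0.38, 0.51 and 0.44 in these lists, against -0.12 over all genes, of which 2.85% were called.

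None of 29 genes of S phase and mitosis was called, where 2.85% of all genes were. A count of 0 is near that background and says nothing about these genes. Their median log2 fold change was -0.23, against -0.12 over all genes. The median gene of the list had a mean of 0.772 CPM, and the median number of libraries with a count was 13. Mki67 had counts in 14 libraries and Top2a in 11, and Pcna was at 14.8 ± 12 CPM in females and 15 ± 12 in males. Of 10 other RNAs without a poly(A) tail, Rn7sk was higher in females (1.35, adjusted p = 1.07e-09), and 4 were lower, among them Rny3 (-1.88, adjusted p = 3.74e-05) and Vaultrc5 (-2.22, adjusted p = 0.00154). Over all libraries Rn7sk had a mean of 2420 CPM, Rny3 of 21.5 and Vaultrc5 of 11.2. The part of a missing tail in the histone values was not tested. Of 10 astrocyte markers 2, Slc1a2 and Slc1a3, were lower in females, and the summed CPM of the list was 1126 to 4980 in females and 1498 to 19888 in males. Its part in the histone values was not tested. Of the endothelial markers Esam (0.61) and Itm2a (0.58) were higher in females, and no other of the 20 was called.

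The strains were compared next. Over 7 strains 1 of the 54 genes was called, against 2.68% of all genes. It was Hist1h2al (ENSMUSG00000091383, chr13:51202727-51203065, minus strand), annotated as a processed pseudogene of an H2A gene with no stop codon given. It lies antisense to Gm44341, and the strand setting of the counting is not given in the sources used here. All of its windows of the length of a read are unique among annotated transcripts outside its own locus, a search that left out Gm44341. The adjusted p was 1e-06.

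In NOD/ShiLtJ the 6 libraries held 19.7 to 73.1 CPM of Hist1h2al (median 52.1). CAST/EiJ held 0 to 31.5 (median 15.6), 129S1/SvImJ 0 to 41.6 (median 10.1) and A/J 0 to 23.8. In WSB/EiJ 2 of 6 libraries had counts (up to 33.7 CPM). The 6 C57BL/6J libraries held 2 counts in all and the 5 DBA/2J libraries 9, all in 1 library. NOD/ShiLtJ did not overlap with C57BL/6J or DBA/2J. Pooled over libraries and relative to their total counts, NOD/ShiLtJ had 1225 times the level of C57BL/6J (95% interval 339 to 10122) and 425 times that of DBA/2J (224 to 931), where the intervals cover counting error only.

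Against the mean of the fitted log2 values of the other 6 strains, Hist1h2al was lower in C57BL/6J (-6.89, SE 1.44, adjusted p = 0.00519, where 0.529% of all genes were called) and in DBA/2J (-6.09, SE 1.43, adjusted p = 0.0343, background 0.192%), values that rest on 2 and 9 counts. It was higher in NOD/ShiLtJ (4.70, SE 0.65, adjusted p = 8.84e-07, background 0.185%) and in CAST/EiJ (2.79, SE 0.68, adjusted p = 0.0103, background 1.35%). These contrasts share libraries. No other of the 54 genes was called in these 4 contrasts. Reads of all strains were aligned to mm10, the C57BL/6J genome, and the part of this in the strain values was not tested. The gene stood at 19.5 ± 20 CPM in females and 9.13 ± 17 in males. With sex, region and tag as covariates it remained the gene called, where 3.45% of all genes were.

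**Figure D3:**
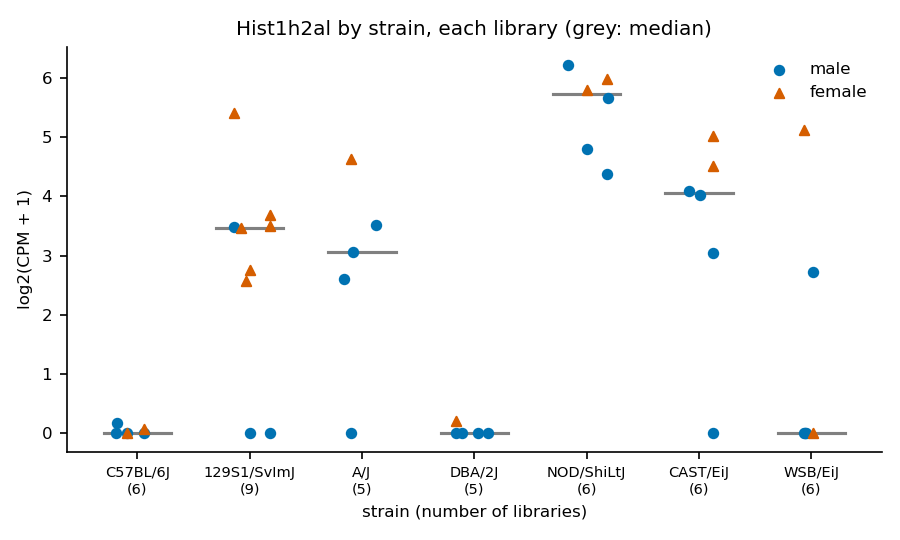
Level of Hist1h2al as log2(CPM + 1) in each library, by strain, with males as circles, females as triangles and the median in grey. All 6 NOD/ShiLtJ libraries stand high, whereas the C57BL/6J and DBA/2J libraries stand at or near 0.

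In 129S1/SvImJ Hist1h4c was called as higher (log2 fold change 2.05, SE 0.49, adjusted p = 0.0128, background 1.46%). The 9 libraries held 0 to 114 CPM (median 25.7), with a mean of 45.3 ± 41.2. The 6 other strains had means between 4.45 (A/J) and 25.2 CPM (C57BL/6J), and the ranges overlapped. Of the 9 libraries 6 were female, and in male libraries alone the fold change was 0.66 (SE 0.94, adjusted p = 1). With sex, region and tag as covariates it was 1.38 (SE 0.57, adjusted p = 0.485). In A/J none of the 54 genes was called by edgeR (background 0.254%), and in WSB/EiJ none was (background 2.41%). At an unadjusted p under 0.05 there were 6 in A/J (11.1%, against 10.1% of all genes). In WSB/EiJ there were 5 (9.26%, against 13.2% of all genes). DESeq2 was not run on the contrasts of single strains. In WSB/EiJ 41 of the 54 genes had lower values, with a median of -2.17 against -0.72 over all genes, and its libraries had the lowest median total of the 7 strains (2721155 counts).

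The libraries of Hist1h1c and Hist1h1e overlapped between all strains. Hist1h1c ranged from a mean of 164 ± 152 CPM in A/J (n = 5) to 383 ± 142 in C57BL/6J (n = 6). The lowest strain for Hist1h1e was again A/J, at 89.2 ± 80.0 CPM, and the highest was WSB/EiJ at 286 ± 348. Neighbouring strains in these orders differed by less than the larger of their SDs. The orders mix the sexes, whose share differed between strains. In WSB/EiJ the mean of Hist1h1e was 715 CPM in 2 female and 71.4 in 4 male libraries. Male means of Hist1h1e were 59.6 CPM in A/J and 200 in C57BL/6J. For Hist1h1c the male means were 105 CPM in WSB/EiJ and 106 in A/J. In the 27 male libraries alone, Hist1h1c and Hist2h2ac were called among strains beside Hist1h2al (1.72% of all genes called). Among strains 1 gene each was called of the replacement histones (H3f3a), the chaperones (Atrx), the S phase genes (Mcm6) and the other RNAs without a poly(A) tail (Rn7sk), and none for histone mRNA processing. Of the cell type markers 7 of 20 endothelial, 5 of 10 pericyte, 2 of 10 smooth muscle, 2 of 10 astrocyte, 1 of 6 neuronal and 3 of 6 erythroid genes were called, and their part in the histone values was not tested.

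Wild-derived strains were compared with long-inbred strains as a whole. None of the 54 genes was called by edgeR, against 0.749% of all genes. At an unadjusted p under 0.05 there were 3 (5.56%), against 7.01% of all genes. DESeq2 called none, against 1.36% of all genes, and gave no adjusted p for 19 of the 54. Hist1h1c stood at 289 ± 195 CPM in 12 wild-derived and 297 ± 180 CPM in 31 long-inbred libraries. Hist1h4d had 59.7 ± 49.0 and 59.6 ± 47.4 CPM. The smallest p belonged to Hist1h2ak, an H2A gene (-4.37, SE 1.77, adjusted p = 0.443), of whose 2257 counts 73.8% came from 1 library of 129S1/SvImJ, and among higher values to Hist1h4h (0.90, SE 0.53, adjusted p = 0.754). The median over the 54 genes was -0.48, beside -0.38 over all genes.

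Between cortex and hippocampus none of the 54 genes was called by edgeR, where 0.0755% of all genes were called. DESeq2 called none, where it called 0.189% of all genes, and gave no adjusted p for 13 of the 54. At an unadjusted p under 0.05 in edgeR there were 2 genes (3.7%), against 5.6% of all genes. Those 2 were Hist1h1t and Hist1h2ai, the genes with counts in a single library. Hist1h1c stood at 291 ± 173 CPM in cortex (n = 21) and 299 ± 194 in hippocampus (n = 22), Hist1h1e at medians of 128 and 161, and Hist1h4d at 58.4 ± 51.6 and 60.8 ± 43.8. The differences of these 3 genes, at most 0.06 on the log2 scale, had SEs of 0.24, 0.28 and 0.32. For a difference of the region effect between the sexes edgeR called none of the 54 genes (0.00343% of all genes called). At an unadjusted p under 0.05 there were 2 of the 54 (3.7%), against 3.7% of all genes. DESeq2 was not run on this interaction. The smallest p in each direction were those of Hist2h2ab (-3.64, SE 1.65) and Hist1h3f, both with an adjusted p of 1.

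Within males, libraries titled high were compared with those titled low. Of the H4 genes 11 of 12 had higher values in the libraries titled high, but none of the 49 genes tested was called by edgeR, where 1.06% of all genes were called. At an unadjusted p under 0.05 there were 4 (8.16%), against 8.11% of all genes. DESeq2 called 1, Hist1h4d (adjusted p = 0.0169), where it called 2.32% of all genes. For 46 of the 49 DESeq2 gave no adjusted p.

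Hist1h4d stood at 0 to 86.8 CPM (median 47.5) in 14 libraries titled high and at 7.34 to 44.5 (median 20.6) in 13 titled low. The ranges overlapped, with the 0 in a WSB/EiJ hippocampus library titled high. The means were 46.3 ± 21.6 and 21.3 ± 11.6 CPM, a log2 fold change of 1.13 (SE 0.34, adjusted p = 0.0978). In 12 of 13 combinations of strain and region with both tags the library titled high was above the one titled low, the exception being WSB/EiJ hippocampus. With strain and region as covariates Hist1h4d (1.14, SE 0.32, adjusted p = 0.0408) and Hist1h1c were called among 38 genes fitted, where 2.25% of all genes were. Without WSB/EiJ Hist1h4d was called (adjusted p = 0.0157), where 1.5% of all genes were.

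Hist1h1c stood at 238 ± 119 CPM in libraries titled high and 157 ± 68.9 in those titled low (log2 fold change 0.61, SE 0.23, adjusted p = 0.293) and was higher in 11 of 13 combinations. For Hist1h1e the means were 123 ± 65.5 and 106 ± 48.0 CPM (0.24, SE 0.28, adjusted p = 0.716), and 9 of 13 were higher. Over the 12 H4 genes the median log2 fold change was 1.34, and their summed level was 112 ± 44.8 CPM against 53.8 ± 22. The summed H1 level was 379 ± 194 against 277 ± 116 CPM. The medians of H2A, H3, H1 and H2B were 0.62, 0.69, 0.24 and -0.12, and that over all genes was 0.04. The smallest p among lower values was that of Hist1h2bf (-5.32, SE 2.66, adjusted p = 0.604), at 0 in all libraries titled high and with counts in 3 titled low.

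**Figure D4:**
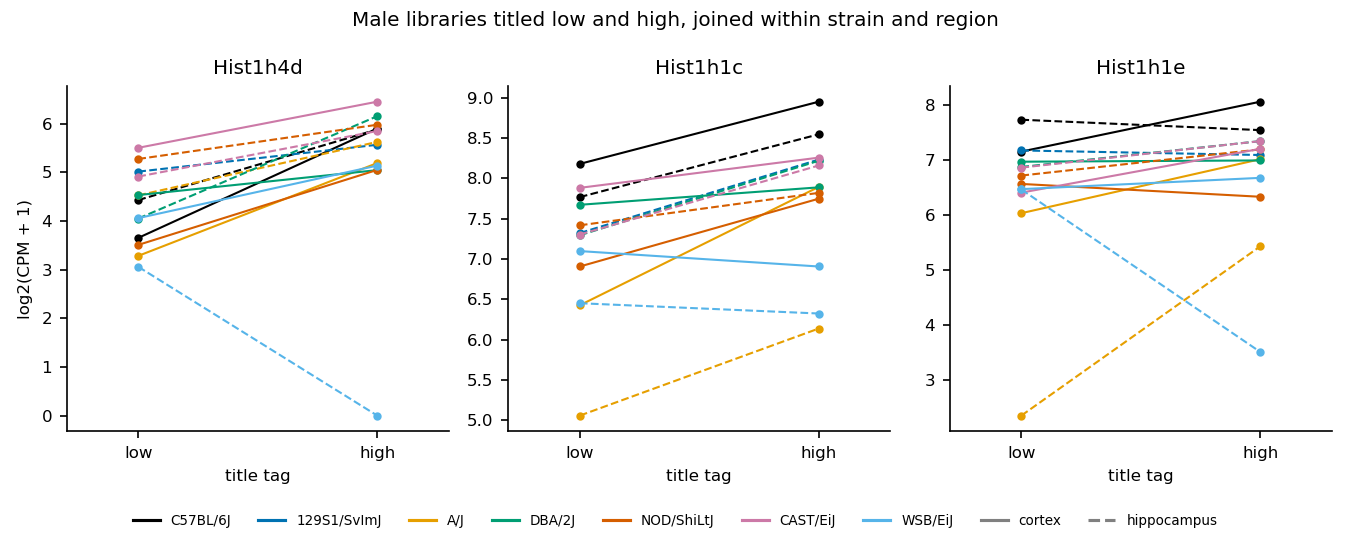
Level of Hist1h4d, Hist1h1c and Hist1h1e as log2(CPM + 1) in male libraries titled low and high, joined within strain (colour) and region (solid, cortex; dashed, hippocampus). The line rises in 12 of 13 combinations for Hist1h4d, 11 for Hist1h1c and 9 for Hist1h1e, and the line that falls for Hist1h4d is WSB/EiJ hippocampus.

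Markers of other cells moved with the title tag. Of 10 astrocyte markers 4 were lower in libraries titled high, namely Aldoc (-1.12, adjusted p = 0.00387), Slc4a4 (-1.11, adjusted p = 0.005), Slc1a2 (-0.88) and S100b (-1.59), and the summed CPM of the list was 1498 to 7346 against 3210 to 19888. Of 20 endothelial markers 5 were higher, among them Cldn5 (0.96, adjusted p = 7.81e-05) and Itm2a (0.88, adjusted p = 0.000315), and 1 was lower, Erg (-0.60, adjusted p = 0.00931). Single markers of pericytes (Rgs5) and neurons (Snap25) were lower, and the globins Hba-a2 and Hbb-bs were higher, as was the rRNA-like gene Gm26917 (1.5). Their part in the histone values was not tested. Rn7sk (0.89, adjusted p = 0.000279), Scarna2 (1.17) and Rnu11 (2.52), of 10 other RNAs without a poly(A) tail, were higher, and no gene of histone mRNA processing, replacement histones, chaperones or S phase was called. For a difference of the tag effect between regions edgeR called none of the 49 genes (0% of all genes called), and DESeq2 was not run on this interaction. At an unadjusted p under 0.05 there were 2 of the 49 (4.08%), against 2.05% of all genes. The smallest p were those of Hist1h4i (-6.71, SE 3.17) and Hist1h3a (9.17, SE 4.47), both with an adjusted p of 1, which had counts in 11 and 6 of the 27 male libraries.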

How the data were processed

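RNA of sorted EC was sequenced in 43 libraries (rRNA depletion, SMARTer Stranded Total RNA kit, single-end reads). Per the labels and the study's methods, the authors used HISAT2 2.1.0 for alignment to mm10 and featureCounts (Subread 1.4.4) for assignment to genes, and they deposited raw counts that were not normalized. The handling of reads with several matches and the strand setting are not given in the sources used here. Groups follow the labels of strain, sex and region and the word high or low in the titles.

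Scaling was by TMM and testing by the quasi-likelihood test of edgeR 4.0.16 under R 4.3.3 (trended dispersion, bias-adjusted deviances), without covariates or pairing, at an adjusted p of 0.05. A gene entered the tests when 1 or more libraries reached 0.5 CPM. DESeq2 1.42.0 was an alternative, as were other scalings, filters, covariates, thinned counts, subsets of libraries, each strain left out and, for the test among strains, each of the 10 libraries of A/J and DBA/2J left out. Models with covariates were run without those genes for which a fitted count was over 5 times the highest count observed, since edgeR stopped on them. The test was checked on simulated counts, where the directions set were recovered. False calls were more frequent than nominal there, most of all among strains and in genes with few counts. Transcript ends, overlaps and sequences came from GENCODE M21 and RefSeq. Between 1626534 and 49372356 counts per library limit the precision, and intervals cover counting error only.

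Named were all genes called, the 10 with the highest mean, the highest per length of each class, and the smallest p in each direction. The genes and lists were chosen with earlier results of these data known.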

Additional observations from a re-analysis of the deposited data

Results flagged for a closer look

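Within a strain, a library was marked where its distance to the next value was a large part of the range of the strain (Dixon's test at 95%). Of 49 groups tested 8 were marked, and chance marks about 1 in 20 where the values follow a single normal distribution. These groups mix the sexes, and some hold values of 0, so that rate need not hold here. The DBA/2J female hippocampus library, the only female one of its strain and the deepest of the series, stood apart with 419 CPM of Hist1h1e (next value 161), with 0.161 CPM of Hist1h2al (next value 0) and with 1556 CPM summed over the 55 genes (next value 650). WSB/EiJ female cortex stood apart with 194 CPM of Hist1h4h (next value 23.9) and with 33.7 CPM of Hist1h2al (next value 5.63). In 129S1/SvImJ, female cortex libraries titled high stood apart with 437 CPM of Hist1h1e (next value 234) and 41.6 CPM of Hist1h2al (next value 11.8). In C57BL/6J a male cortex library titled high had 0.131 CPM of Hist1h2al (next value 0.0456), which is a single count. Of these 8 values 7 were from female libraries.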

How the results depend on the processing

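Percentages in brackets are shares of all genes called. Between the sexes, 5 genes were called with the settings reported (2.85%) and with the rRNA-like genes left out (2.77%). There were 3 with DESeq2's size factors (2.01%), with DESeq2 (3.43%, no adjusted p for 16 of the 54) and in libraries titled high (1.73%). Cortex alone gave 2 (0.994%) and hippocampus alone 3 (1.19%). None (0) was called with the rRNA-like share as covariate (0.226%) or in A/J, CAST/EiJ and NOD/ShiLtJ alone (0.0697%). The subsets and this covariate were chosen after seeing the data. Leaving out each strain gave 3 to 5 (1.8% to 2.95%), with 3 without A/J (2.41%) and without DBA/2J (1.8%). Hist1h1c, Hist1h1e and Hist1h4d were called in all 7. The fold change reversed for Hist1h4c with the rRNA-like share as covariate (-0.23) and for Hist1h4h in those 3 strains (-0.17). By origin the value of Hist1h4h reversed in hippocampus alone (-0.33), and no alternative called a gene (0.166% to 1.47%). The test among strains called 1 gene with the settings reported (2.68%). It called 2 with DESeq2's size factors (2.63%), without a filter (2.97%), with 0.5 CPM in at least 12 libraries (5.75%) and with thinned counts (2.3%). There were 3 with DESeq2 (4.52%, no adjusted p for 19 of the 54). In males alone there were 3 as well (1.72%), namely Hist1h1c, Hist1h2al and Hist2h2ac. Leaving out in turn the 10 libraries of A/J and DBA/2J, the strains with 5 libraries, gave 1 to 3 (2.46% to 2.88%). There were 3 without the DBA/2J female hippocampus library (2.88%). Without the DBA/2J or the A/J male cortex library titled low there were 2 (2.6% and 2.59%). Hist1h2al was called in all 18 alternatives. Over the 7 contrasts of a strain with the other 6, the 5 calls became 8 with the stricter filter and 3 in males alone. The share of all genes was not computed for these alternatives. With sex, region and tag as covariates Hist1h2al in DBA/2J was at -5.96 (adjusted p = 0.0917). In males alone its calls were lost in C57BL/6J, which then held 1 count (adjusted p = 1), in DBA/2J, which held 0 (adjusted p = 0.172), and in CAST/EiJ (3.05, adjusted p = 0.0789). Within males the title tag gave 1 call with DESeq2 (2.32%) and 2 with strain and region as covariates (2.25%). Leaving out each strain gave 0 to 1 (0.47% to 1.5%), the 1 without WSB/EiJ (1.5%). The cause of these changes was not tested. No paired analysis was possible because the titles number replicates only for some 129S1/SvImJ female libraries, so that the groups compared share fewer than 2 numbers. Genes with few counts limit what can be seen: 19 of the 55 had counts in fewer than 10 libraries, and a missing call there shows no equality.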
